A study of Mus musculus with 2 samples.

Results

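The genes of the TGF-beta, BMP and Nodal pathway were examined in 1 library from a normal mouse kidney and 1 library from a mouse kidney tumour. Members were taken by symbol: the TGF-beta, activin, inhibin, Nodal, Lefty, BMP and numbered GDF ligands, their receptors, the Smads, the co-receptor Tdgf1 and the secreted antagonists of the family, among them Nog, Chrd, Grem1 and Fst. This gave 58 of the 30744 symbols in the deposited table, and 49 of the 58 had at least 20 reads over both libraries, the minimum at which a gene counted as measured (16326 symbols in all).

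Both animals are given as F1 of C57BL/6 x DBA/2. The normal kidney is labelled wild type (WT) and received no doxycycline. The tumour is labelled Tet-OSKM/mPer2-luc with doxycycline, meaning that doxycycline turns on the reprogramming factors Oct4, Sox2, Klf4 and c-Myc and that the clock gene Per2 carries a luciferase reporter. The protocol given with both libraries describes chimeric mice, made from embryonic stem cells with Rosa26-M2rtTA, TetO-OSKM and mPer2-luc that were injected into blastocysts, F1 hybrids of C57BL/6 x DBA/2. A chimera holds host cells beside cells of the injected line. Whether the normal kidney came from a chimera, the age and sex of the animals and the length of treatment were not given in the sources used here. RNA was depleted of ribosomal RNA, so the reads come from total RNA of whole tissue.

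TGF-beta family ligands are secreted dimers that bring together type I and type II receptor kinases at the cell surface. The type II receptor phosphorylates the type I receptor, which phosphorylates a receptor-activated Smad: Smad2 and Smad3 for TGF-beta, activin and Nodal, and Smad1, Smad5 and Smad9 for most BMPs. These Smads bind Smad4 and act on genes in the nucleus, while Smad6 and Smad7 dampen the signal. In the kidney, BMP7 is needed for nephron formation and TGF-beta is known for its part in fibrosis, and in the early embryo and in pluripotent cells Nodal and its co-receptor Tdgf1 (Cripto) drive Smad2 and Smad3 and induce their own inhibitors Lefty1 and Lefty2.

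Exon reads came to 29258428 in the normal kidney and 20836819 in the tumour, and member reads to 28095 and 45749. With 1 library per group the differences have no replicate check: the values compare these 2 libraries and not the conditions, and no p-value is given. Levels of one gene in both libraries are given as reads and as CPM, the reads scaled to library size by TMM, a method that assumes most genes do not differ. Levels of different genes are compared only as the deposited RPKM, which is per transcript length. A gene is called higher or lower where the tumour CPM differed from the normal CPM by at least 2-fold and the 95% counting interval excluded 1. Where a gene had 0 reads in 1 library, the fold is taken at a floor of 3 reads, equal to 0.124 CPM for the normal kidney. Such a fold is not a confidence bound: the lower interval limit, which uses the 0 reads themselves, is smaller and is given beside it. All intervals cover counting error only.

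The tumour library had little RNA of kidney tubules and much RNA of pluripotent cells, and every value below stands beside that makeup. All 8 proximal tubule markers, all 7 of the loop of Henle and distal tubule and all 7 of the collecting duct were lower. Their summed levels went from 29681 to 908 CPM, from 7858 to 59.1 CPM and from 354 to 22.3 CPM. Of the 908 CPM, Lrp2 held 610 and Cubn 210, and the 8 proximal tubule ratios ran from 9.92-fold to 1843-fold lower. Of 7 podocyte markers 4 were lower, 1 (Wt1) was higher and 2 were neither, with sums of 377 and 244 CPM. Of 10 endothelial markers 7 were lower, with sums of 732 and 194 CPM. All 9 pluripotent cell markers were higher, with sums of 26.5 and 1595 CPM. In the normal library 6 of them, Dppa5a, Fgf4, Pou5f1 and Sox2 among these, had 0 reads. Pou5f1 (Oct4) and Sox2, at 449 and 151 CPM in the tumour, are also factors that doxycycline turns on. The part of the introduced copies in their reads was not tested. In whole tissue, fewer cells of a type and less RNA per cell cannot be told apart.

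Of the 49 measured members, 21 were higher in the tumour, 9 were lower and 19 were neither. Over all measured genes 31.2% were higher and 28.0% were lower. Only 6661 of the 16326 were neither, so by these calls the TMM assumption that most genes do not differ was not met. The median log2 ratio of the members was 0.56, beside 0.085 over all measured genes. Of 28 measured ligands and antagonists 18 were higher and 6 lower, whereas of 19 measured receptors and Smads 1 was higher, 3 were lower and 15 were neither. Tdgf1 and the protease gene Bmp1, both higher, make up the rest. With plain CPM, which scales by exon reads alone, the median of all measured genes moved from 0.085 to 0.64. Then 42.1% of genes were higher and 20.2% lower, and the members split into 27 higher and 7 lower. The 6 that became higher were Acvr1, Bmpr1a, Smad1, Smad2, Smad4 and Smad7, and the 2 no longer lower were Tgfbr2 and Tgfbr3. All of these are receptors or Smads, so the split of that group depends on the scaling.

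**Figure D1:**
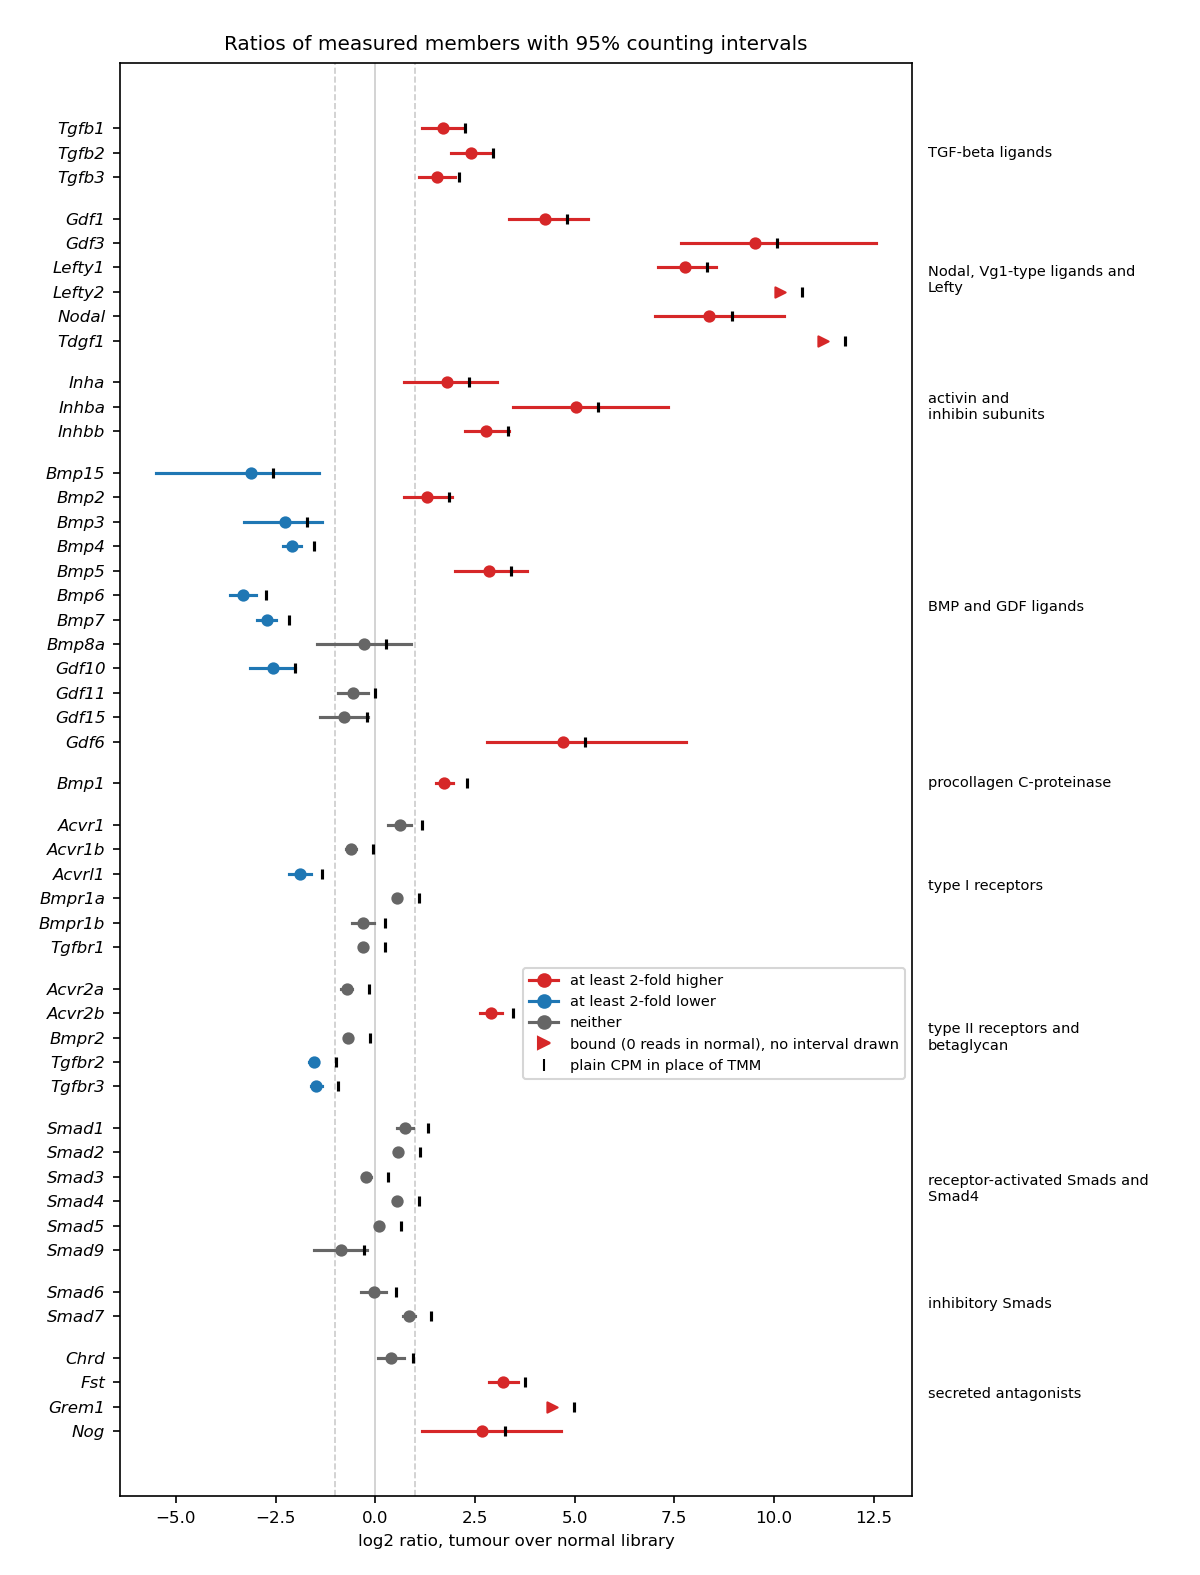
Log2 of the tumour over normal ratio of TMM-scaled CPM for 48 of the 49 measured members by role (x axis), with 95% counting intervals as bars and black ticks for plain CPM. Arrowheads, named bounds in the key, mark the 3 ratios taken at the floor, where the normal library had 0 reads. Tdgf1, Lefty2, Gdf3, Nodal and Lefty1 lie farthest to the right, Bmp4, Bmp6, Bmp7 and Gdf10 lie on the left, and most receptors and Smads lie within the dashed lines at 2-fold.

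Nodal, its relatives, its co-receptor and its inhibitors were all higher in the tumour, 6 of 6, with a median log2 ratio of 8.95. Nodal, the ligand that patterns the early embryo (mm10 chr10:61417972-61425337, plus strand), had 4 reads (0.166 CPM) in the normal kidney and 1401 reads (55.4 CPM) in the tumour library. That is a 334-fold difference (interval 130 to 1228). Tdgf1, which encodes the cell surface co-receptor that Nodal needs (chr9:110939608-110946158, minus strand), had 0 reads in the normal kidney and 7522 reads (298 CPM) in the tumour. At the floor that is 2392-fold higher (lower interval limit 1945). Both genes were thus at or near 0 reads in the normal kidney.

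The promoters of Nodal and Tdgf1 are shown because both genes were near 0 in one library and abundant in the other, with that of Bmpr1a, a receptor gene that was well read in both, for contrast. Each is the 250 bases before the RefSeq start on GRCm38.p6, printed in the direction of the gene, with CpG dinucleotides in capitals. Nodal lies on the plus strand (chr10:61417722-61417971) and holds 3 CpG. Tdgf1 lies on the minus strand (chr9:110946159-110946408) and holds 7, and Bmpr1a on the minus strand (chr14:34502547-34502796) holds 36.
Nodal: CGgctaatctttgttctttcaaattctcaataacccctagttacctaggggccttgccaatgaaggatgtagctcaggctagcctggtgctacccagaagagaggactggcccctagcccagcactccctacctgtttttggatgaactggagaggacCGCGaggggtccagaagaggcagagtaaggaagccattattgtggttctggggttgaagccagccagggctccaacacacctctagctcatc
Tdgf1: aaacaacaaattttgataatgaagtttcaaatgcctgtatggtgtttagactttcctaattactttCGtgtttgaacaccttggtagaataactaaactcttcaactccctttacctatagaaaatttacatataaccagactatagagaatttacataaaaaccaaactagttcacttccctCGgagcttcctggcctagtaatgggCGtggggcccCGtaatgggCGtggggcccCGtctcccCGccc
Bmpr1a: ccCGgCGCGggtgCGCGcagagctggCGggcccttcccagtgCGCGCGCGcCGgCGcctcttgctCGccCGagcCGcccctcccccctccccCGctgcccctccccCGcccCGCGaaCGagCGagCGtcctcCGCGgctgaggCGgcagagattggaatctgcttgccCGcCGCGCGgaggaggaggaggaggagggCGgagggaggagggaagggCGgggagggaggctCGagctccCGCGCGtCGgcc

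Across the 39 members with a RefSeq promoter entry (19 had none), the 300-base window that ends 50 bases after the start held a median of 31 CpG in the 15 receptor and Smad genes and of 11 in the 24 genes of ligands, Tdgf1 and antagonists. The median over all 32851 promoters of that table was 7. Counts ran from 6 to 54 in the first group and from 2 to 42 in the second, so the 3 printed promoters do not stand for all members. For example, Grem1, with 0 reads in the normal kidney, held 28 CpG, and Bmpr1b, with 236 and 201 reads, held 6. The Smad box (letters CAGAC, both strands) was found in 18 of 39 member windows (46.2%) and in 49.6% of all windows, and in Tdgf1 it begins 113 bases before the start. The FOXH1 letters AATNCACA were in 3.60% of all windows and, among members, in that of Inhbc alone. The Klf-type letters GGGNGTGG, searched for after the Tdgf1 sequence had been seen, occur at 45 and 26 bases before its start, in 16 of 39 member windows (41.0%) and in 17.6% of all windows. The Sp-type GC box GGGCGG was in 26 of 39 member windows (66.7%) and in 35.7% of all windows, and the octamer ATTTGCAT in 0 of 39 and in 1.74%. Member windows held a median of 23 CpG, beside 7 over all windows, and these shares were not matched for base content. A match of letters describes the sequence and does not show binding.

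Lefty1 and Lefty2 encode secreted inhibitors that bind Nodal and its co-receptors. Lefty1 (chr1:180935039-180938401) had 17 reads (0.705 CPM) in the normal kidney and 3901 reads (154 CPM) in the tumour, 219-fold higher (interval 137 to 376). Lefty2 (chr1:180893119-180899102) had 0 reads in the normal kidney and 3554 reads (141 CPM) in the tumour, 1130-fold higher at the floor (lower interval limit 919). Both copies were abundant in the same library, and part of their sequence is common: 17.9% of the 50-base stretches of the Lefty1 transcript also occur in Lefty2, and 11.6% of those of Lefty2 in Lefty1, so how reads were divided between them is uncertain. In the same way 12.5% of the stretches of Tdgf1 occur in the pseudogene Tdgf1-ps1.

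Gdf1 and Gdf3 are the mammalian relatives of the frog ligand Vg1, and GDF1 acts together with Nodal. Gdf3, a gene of pluripotent cells (chr6:122605403-122610071, minus strand), had 2 reads (0.0829 CPM) in the normal kidney and 1533 reads (60.6 CPM) in the tumour, a ratio of 731 (interval 202 to 6043). Gdf1 had 10 reads (0.415 CPM) and 200 reads (7.91 CPM), 19.1-fold higher (interval 10.2 to 40.4). The Gdf1 value is uncertain, since Gdf1 is made on a joint transcript with the ceramide synthase gene Cers1 and 100% of its 50-base stretches occur there too.

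**Figure D2:**
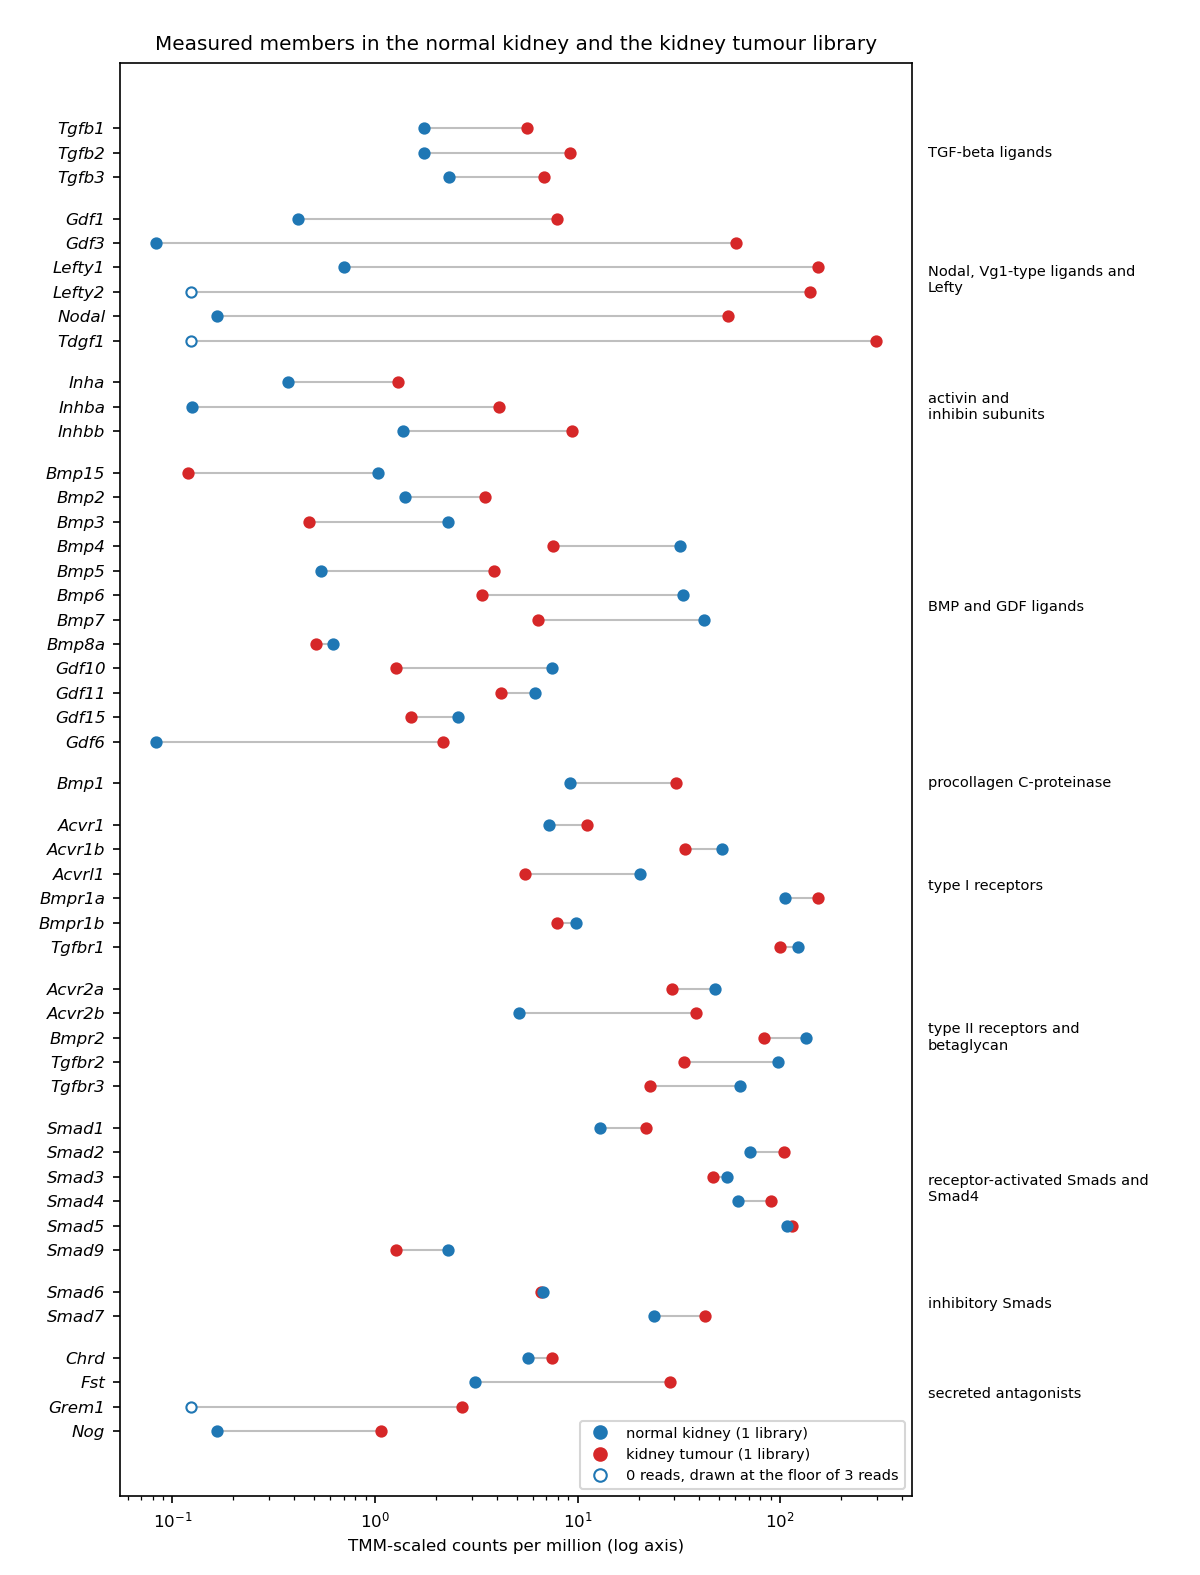
CPM after TMM scaling on a log axis for 48 of the 49 measured members, grouped by role, with a blue point for the normal kidney, a red point for the tumour and an open point where 0 reads are drawn at the 3-read floor. Points are not corrected for transcript length, so the order of different genes is not read from them. Of the 19 receptor and Smad pairs 15 lie less than 2-fold apart.

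The order of levels differed between the libraries. On the RPKM scale the highest members of the normal library were Tgfbr1 at 13.0, Tgfbr2 at 12.1, Bmpr1a at 11.5, Smad4 at 11.1, Smad5 at 9.83 and Bmp4 at 9.60. In the tumour library they were Tdgf1 at 118, Lefty1 at 73.5, Lefty2 at 43.6, Gdf3 at 21.9, Bmpr1a at 21.4, Smad4 at 20.7 and Nodal at 20.2. Tdgf1 lay above 98.2% of all measured genes of that library. Nodal, Gdf1, Gdf3, Lefty1 and Lefty2 together made up 1.28% of the summed RPKM of all secreted ligands and Lefty genes in the normal kidney and 88.5% in the tumour library.

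The 3 TGF-beta isoforms, the founding ligands of the family and known for growth arrest and matrix production, were all higher in the tumour, at low levels. Tgfb1 had 42 reads (1.74 CPM) in the normal kidney and 142 (5.62 CPM) in the tumour, 3.23-fold higher (interval 2.27 to 4.67). Tgfb2 had 42 (1.74 CPM) and 231 (9.14 CPM), 5.25-fold higher (interval 3.76 to 7.47). Tgfb3 had 56 (2.32 CPM) and 172 (6.80 CPM), 2.93-fold higher (interval 2.16 to 4.04), and 8.79% of its 50-base stretches are shared with genes on the opposite strand. Their summed RPKM was 1.13 in the normal kidney and 5.06 in the tumour library. Of 9 macrophage and leukocyte markers 7 were also higher, with sums of 139 and 415 CPM. Of 8 fibroblast and smooth muscle markers 3 were higher and 1 lower, with a median log2 ratio of -0.28. Their sums were 316 and 632 CPM, of which the collagen gene Col3a1 alone held 63.6 and 466 CPM. The part of these cells in the TGF-beta values was not tested.

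Activins are dimers of inhibin beta subunits and signal through Smad2 and Smad3, and the alpha subunit Inha turns them into inhibins, which block activin. All 3 measured subunits were higher in the tumour library. Inhba had 3 reads (0.124 CPM) in the normal kidney and 103 (4.07 CPM) in the tumour, a ratio of 32.8 (interval 10.9 to 161). Inhbb had 33 (1.37 CPM) and 238 (9.41 CPM), 6.88-fold higher (interval 4.77 to 10.2), and Inha had 9 (0.373 CPM) and 33 (1.30 CPM), 3.50-fold higher (interval 1.64 to 8.31). Inhbc, with 2 and 4 reads, and Inhbe, with 0 in both, were not measured.

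The BMP and GDF ligands went both ways: of 12 measured, 3 were higher, 6 were lower and 3 were neither, with a median log2 ratio of -1.43. The abundant ones were lower. Bmp7 (chr2:172868012-172940321, minus strand) had 1016 reads (42.1 CPM) in the normal kidney and 162 (6.41 CPM) in the tumour, 6.57-fold lower (interval 5.56 to 7.81). Bmp6, which in the liver controls hepcidin and thereby iron (chr13:38345716-38499728), had 801 (33.2 CPM) and 85 (3.36 CPM), 9.88-fold lower (interval 7.89 to 12.5). Bmp4, which acts in ureter and mesoderm formation (chr14:46383520-46390599, minus strand), had 772 (32.0 CPM) and 191 (7.56 CPM), 4.24-fold lower (interval 3.61 to 4.99). An antisense gene, Gm15217, lies over Bmp4 with 432 and 20 reads, and the sources used here give no strand setting for the counting, so reads of the pair may be mixed. All tubule and collecting duct markers and 7 of 10 endothelial markers were lower in the same library, and their part in these values was not tested.

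Bmp4, Bmp6 and Bmp7 summed to 24.7 RPKM in the normal kidney and 5.29 RPKM in the tumour library. They were 79.1% of the BMP and GDF ligand RPKM in the normal kidney and 46.0% in the tumour, and 74.4% and 2.90% of that of all secreted ligands and Lefty genes. By RPKM, BMPs thus led the secreted ligands and Lefty genes in the normal kidney, and Lefty and Nodal-type genes led in the tumour. Of the 161.5 RPKM of Nodal, Gdf1, Gdf3, Lefty1 and Lefty2 in the tumour, the 2 Lefty genes, which encode inhibitors, held 117 RPKM.

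**Figure D3:**
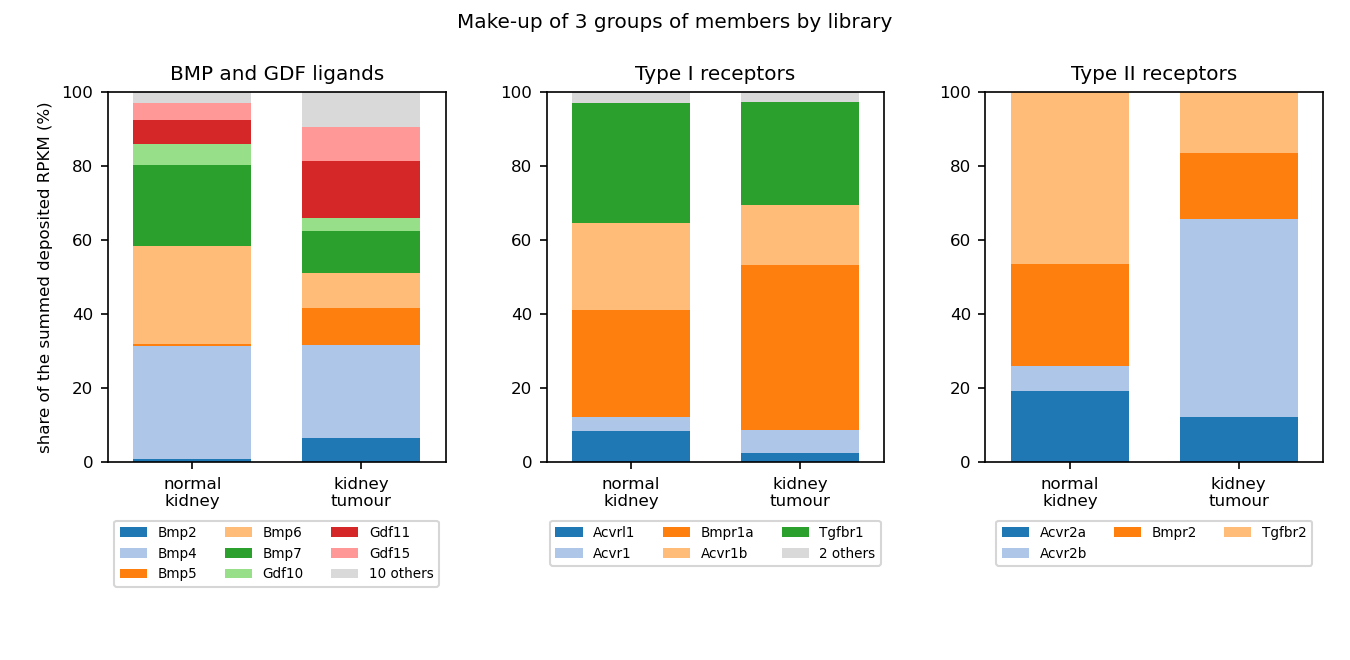
Percent of the summed deposited RPKM of each group (y axis) taken by each gene, with 1 stacked bar for each library, for the BMP and GDF ligands, the type I receptors and the type II receptors without betaglycan. Bmp4, Bmp6 and Bmp7 make up 79.1% of the first group in the normal kidney and 46.0% in the tumour, and Acvr2b 6.92% and 53.7% of the last.

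The other BMP and GDF ligands had fewer reads. Gdf10, also called BMP3B, had 180 reads (7.46 CPM) in the normal kidney and 32 (1.27 CPM) in the tumour, 5.90-fold lower (interval 4.03 to 8.88). Bmp3, an antagonistic BMP of bone, had 55 and 12 reads, 4.80-fold lower (interval 2.54 to 9.86), and Bmp15, an oocyte factor, had 25 and 3 reads, a ratio of 8.74 towards the normal library (interval 2.67 to 45.2). Higher in the tumour library were Bmp2, a bone and heart morphogen, with 34 and 88 reads (2.47-fold, interval 1.65 to 3.78), Bmp5 with 13 and 98 reads (7.19-fold, interval 4.02 to 13.99) and the joint-forming factor Gdf6 with 2 and 55 reads (a ratio of 26.2, interval 6.93 to 222). Of the 50-base stretches of Bmp5, 48.5% lie on the strand opposite the gene Gm26903, which makes its value uncertain without the strand setting.

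Gdf11, which patterns the body axis, had 149 and 106 reads, 1.47-fold less in the tumour (interval 1.14 to 1.91). Gdf15, a stress-induced hormone, had 62 and 38 reads, 1.71-fold less (interval 1.12 to 2.63), and Bmp8a had 15 and 13 reads, with an interval that spans 1. These 3 were called neither. Not measured were Bmp8b with 0 and 8 reads, Gdf5 with 0 and 9, Gdf7 with 0 and 2, Gdf9 with 8 and 4, and Bmp10 and Gdf2 with 0 in both. Bmp1, which carries the name but is a protease that trims procollagen and cleaves chordin, had 222 reads (9.21 CPM) and 775 (30.7 CPM), 3.33-fold higher in the tumour library (interval 2.87 to 3.88).

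Among the type I receptors, the kinases that phosphorylate Smads, 1 of 6 measured was lower and 5 were neither. Acvrl1 (ALK1), the BMP9 and BMP10 receptor of endothelium, had 490 reads (20.3 CPM) in the normal kidney and 139 (5.50 CPM) in the tumour, 3.70-fold lower (interval 3.06 to 4.49). Bmpr1a (ALK3), a receptor of BMP2 and BMP4, had 2546 (106 CPM) and 3883 (154 CPM), 1.46-fold more in the tumour (interval 1.38 to 1.53). Acvr1 (ALK2) had 175 and 280 reads, 1.53-fold more (interval 1.26 to 1.85). Acvr1b (ALK4), the type I receptor of activin and Nodal, had 1249 (51.8 CPM) and 861 (34.1 CPM), 1.52-fold less (interval 1.39 to 1.66). Tgfbr1 (ALK5), the TGF-beta receptor, had 2970 (123.2 CPM) and 2519 (99.7 CPM), 1.24-fold less (interval 1.17 to 1.30), and Bmpr1b (ALK6) had 236 and 201 reads, 1.23-fold less (interval 1.015 to 1.49). Acvr1c (ALK7), with 0 and 5 reads, was not measured. On the RPKM scale the 4 receptors of the BMP class, Acvrl1, Acvr1, Bmpr1a and Bmpr1b, held 43.9% of the type I sum in the normal kidney and 55.6% in the tumour library.

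The type II receptors differed from one another. Acvr2b, a receptor of activin and Nodal (chr9:119402501-119433506), had 124 reads (5.14 CPM) in the normal kidney and 976 (38.6 CPM) in the tumour, 7.51-fold higher (interval 6.22 to 9.13). It was the only one of the 19 measured receptors and Smads called higher with TMM scaling. Its close relative Acvr2a had 1152 (47.8 CPM) and 737 (29.1 CPM), 1.64-fold less in the tumour (interval 1.49 to 1.80). Acvr2a is uncertain without the strand setting, since Orc4 lies opposite it with 977 and 1235 reads and 7.04% of the 50-base stretches of Acvr2a are shared with that strand. Bmpr2, the BMP type II receptor, had 3236 (134 CPM) and 2113 (83.6 CPM), 1.61-fold less (interval 1.52 to 1.70).

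Tgfbr2, the type II receptor of TGF-beta, had 2345 reads (97.2 CPM) in the normal kidney and 846 (33.5 CPM) in the tumour, 2.91-fold lower (interval 2.69 to 3.15). Tgfbr3, betaglycan, which presents TGF-beta 2 and binds inhibin, had 1532 (63.5 CPM) and 576 (22.8 CPM), 2.79-fold lower (interval 2.53 to 3.07). With plain CPM both were under 2-fold and called neither, at log2 ratios of -0.98 and -0.92. Of the RPKM of the 4 type II receptors, Tgfbr2 held 46.3% in the normal kidney and 16.5% in the tumour, while Acvr2b held 6.92% and 53.7%. Of the 10 endothelial markers 7 were lower, with ratios over all 10 of 1.31-fold to 15.8-fold less in the tumour and none at 0, and their part in the values of Acvrl1, Tgfbr2 and Tgfbr3 was not tested.

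With TMM scaling the Smads were read at like levels in both libraries: none of 8 was called, and their log2 ratios ran from -0.85 to 0.84. Smad2 had 1708 reads (70.8 CPM) in the normal kidney and 2642 (105 CPM) in the tumour, 1.48-fold more in the tumour (interval 1.39 to 1.57). Smad3 had 1319 (54.7 CPM) and 1182 (46.8 CPM), 1.17-fold less (interval 1.08 to 1.27). Smad4, the partner common to both branches, had 1498 (62.1 CPM) and 2286 (90.4 CPM), 1.46-fold more (interval 1.36 to 1.56). Of the BMP branch, Smad1 had 311 and 550 reads (1.69-fold more, interval 1.47 to 1.95), Smad5 had 2613 and 2907 (1.06-fold more, interval 1.01 to 1.12) and Smad9 had 55 and 32 (1.80-fold less, interval 1.15 to 2.88). On the RPKM scale Smad2 and Smad3 held 47.2% of the receptor-activated Smads in the normal kidney and 46.0% in the tumour library.

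The inhibitory Smad7, which blocks TGF-beta receptors and is itself induced by the signal, had 574 reads (23.8 CPM) and 1076 (42.6 CPM), 1.79-fold more in the tumour (interval 1.62 to 1.98). Smad6, which blocks BMP receptors, had 163 and 166 reads, with an interval that spans 1. These levels are of transcripts, and Smad activity is set by phosphorylation, which was not measured. Scaling bears on this group: with plain CPM Acvr1, Bmpr1a, Smad1, Smad2, Smad4 and Smad7 passed 2-fold higher, and Bmpr1b, Tgfbr1, Smad3 and Smad6 lay on the other side of 1 from where TMM put them.

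Of the secreted antagonists, which bind ligands outside the cell, Fst, Grem1 and Nog were higher in the tumour library. Follistatin, Fst, the activin antagonist, had 75 reads (3.11 CPM) in the normal kidney and 726 (28.7 CPM) in the tumour, 9.24-fold higher (interval 7.27 to 11.9). Grem1, a BMP antagonist of limb and kidney development, had 0 and 68 reads (2.69 CPM), 21.6-fold higher at the floor (lower interval limit 17.1). Noggin, Nog, had 4 and 27 reads, 6.44-fold higher (interval 2.24 to 25.3). Chordin, Chrd, had 138 (5.72 CPM) and 189 (7.48 CPM), 1.31-fold more (interval 1.04 to 1.64), and was called neither. Of the RPKM of all antagonists among the members Chrd held 55.3% and Fst 39.1% in the normal library, against 13.9% and 69.4% in the tumour.

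Beyond the members, 77 further genes of the pathway were grouped by role, and 71 were measured. Of these 30 were higher in the tumour, 17 were lower and 24 were neither, with a median log2 ratio of 0.55. The shares of all measured genes are 31.2% and 28.0%, as given above.

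**Figure D4:**
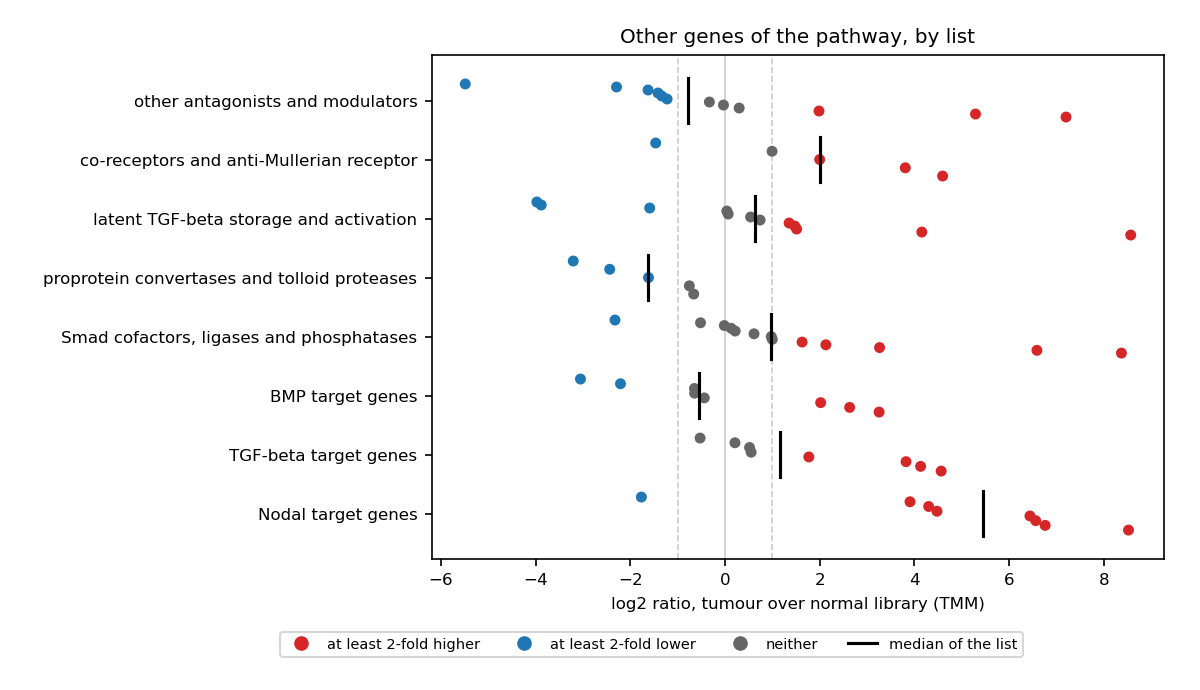
Log2 of the tumour over normal ratio of TMM-scaled CPM (x axis) for the 71 measured further pathway genes in 8 lists, 1 point a gene, with the list median as a bar and dashed lines at 2-fold. The points of the Nodal target list lie to the right except Lhx1, and those of the proprotein convertases and tolloid proteases lie to the left.

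Of 8 genes known as targets of Nodal in the embryo, 7 were higher in the tumour library and 1 was lower, with a median log2 ratio of 5.46. The mesoderm gene T (Brachyury) had 1 and 385 reads, a ratio of 367 (interval 65.5 to 14544). Fgf8, a growth factor of gastrulation, had 0 and 341 reads (13.5 CPM), 108-fold higher at the floor (lower interval limit 87.7). Eomes had 5 and 495, 94.4-fold higher (interval 40.2 to 292). Lhx1, which is also a gene of the nephron, had 266 and 82 reads, 3.40-fold lower (interval 2.65 to 4.41). Several of these genes are also general markers of mesoderm and endoderm, and 4 of the 8 had 0 reads in the normal library.

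Of 13 Smad cofactors, ligases and phosphatases 5 were higher and 1 was lower. Smurf1, Ski and Rnf111, called neither, passed 2-fold higher with plain CPM, at log2 ratios of 1.56, 1.53 and 1.17. Foxh1, the DNA-binding partner of Smad2 in Nodal signalling, had 0 and 1042 reads (41.2 CPM), 331-fold higher at the floor (lower interval limit 269). The repressors Tgif2, with 14 and 1411 reads, and Tgif1, with 168 and 1692, were 96.2-fold and 9.61-fold higher (intervals 57.1 to 176 and 8.20 to 11.3). The ubiquitin ligase Nedd4l, which also limits the epithelial sodium channel of the nephron, had 2949 and 618 reads, 5.002-fold lower (interval 4.58 to 5.46).

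Of 12 further antagonists and modulators 3 were higher and 6 were lower, of which Chrdl1, Kcp and Fstl3 were under 2-fold with plain CPM. Cer1 (Cerberus), an inhibitor of Nodal and BMP, had 0 and 463 reads (18.3 CPM), 147-fold higher at the floor (lower interval limit 119). Sostdc1, also called USAG-1, a BMP antagonist of the distal nephron, had 1282 reads (53.2 CPM) and 30 (1.19 CPM), 44.8-fold lower (interval 31.2 to 66.7). Crim1, a membrane protein that binds BMPs, had 2956 and 633 reads, 4.90-fold lower (interval 4.49 to 5.34), and Dand5, a Nodal inhibitor of the left-right axis, had 103 and 35, 3.09-fold lower (interval 2.08 to 4.67).

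Of 5 measured co-receptors and related receptors 3 were higher and 1 was lower. Cfc1 (Cryptic), the relative of Tdgf1, had 0 and 76 reads (3.01 CPM), 24.2-fold higher at the floor (lower interval limit 19.2). The BMP co-receptor Rgma had 37 and 155, 3.996-fold higher (interval 2.78 to 5.89). Endoglin, Eng, the partner of Acvrl1 in endothelium, had 1371 (56.9 CPM) and 521 (20.6 CPM), 2.76-fold lower (interval 2.49 to 3.06), and under 2-fold with plain CPM, at a log2 ratio of -0.91. Acvrl1 and Eng were lower together with endothelial markers such as Kdr, which was 15.8-fold lower, whereas Pecam1 was 1.31-fold less; the part of endothelial cells in these values was not tested. Rgmb, with 172 and 359 reads, was just under 2-fold and called neither, and passed 2-fold with plain CPM.

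TGF-beta is stored in a latent form on matrix proteins and freed by integrins. Of 12 genes of storage and activation 5 were higher and 3 were lower. Higher were Fbn2, a fibrillin of the embryo, with 4 and 1591 reads (379-fold, interval 148 to 1394), Ltbp2 with 16 and 299 (17.8-fold, interval 10.8 to 31.6) and Nrros, a tether on myeloid cells, with 105 and 314 (2.85-fold, interval 2.28 to 3.59). The integrin chain Itgb8 had 5378 reads (223 CPM) and 359 (14.2 CPM), 15.7-fold lower (interval 14.1 to 17.5). Itgb6 and Itgav, chosen after their values were seen because they complete the count, were 14.7-fold and 3.01-fold lower. Ltbp1 and Lrrc32, called neither, passed 2-fold higher with plain CPM, at log2 ratios of 1.10 and 1.30.

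Proprotein convertases cut the ligands from their precursors, and tolloid proteases cleave chordin. Of the 5 measured genes of these kinds 3, all convertases, were lower and none was higher, with a median log2 ratio of -1.62. Pcsk5 had 1804 and 205 reads, 9.22-fold lower (interval 7.98 to 10.7). Furin, which cuts TGF-beta and BMP precursors, had 3776 reads (157 CPM) and 732 (29.0 CPM), 5.41-fold lower (interval 4.99 to 5.86), and Pcsk7 had 1275 and 436, 3.06-fold lower (interval 2.75 to 3.42).

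The 2 target gene lists of the other branches were mixed. Of 8 BMP target genes 3 were higher and 2 lower. The Id genes encode inhibitors of helix-loop-helix factors and are direct targets of Smad1 and Smad5. Id2 had 7483 reads (310 CPM) and 946 (37.4 CPM), 8.29-fold lower (interval 7.75 to 8.88), and Id4 had 458 and 104, 4.62-fold lower (interval 3.72 to 5.77). Id1, with 552 and 370 reads, was 1.56-fold less (interval 1.37 to 1.79) and called neither. The homeobox gene Msx1 had 8 and 52 reads, 6.20-fold higher (interval 2.92 to 15.1).

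Of 8 TGF-beta target genes 4 were higher and none lower, with a median log2 ratio of 1.16. Tgfbi and Acta2, called neither, passed 2-fold higher with plain CPM, at log2 ratios of 1.11 and 1.08. Col1a1, a chain of type I collagen, had 241 and 4425 reads, 17.5-fold higher (interval 15.4 to 20.02), and fibronectin, Fn1, had 1418 and 21034, 14.2-fold higher (interval 13.4 to 14.9). Ctgf had 2929 and 2132 reads, 1.44-fold less (interval 1.36 to 1.52), and was called neither, and with plain CPM it lay just above 1. Pluripotent and mesenchymal cells also make some of these proteins, and the fibroblast and smooth muscle markers, 3 of 8 of which were higher, are given above; the part of these cells in the values was not tested. Among other ligands of the family, Amh had 4 and 8 reads and Mstn 0 in both, and neither was measured.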

How the data were processed

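Total RNA-seq was done on 1 normal mouse kidney and 1 kidney tumour, with groups taken from GEO's labels. The authors deposited RPKM values and whole-number counts of reads over the exons of 32958 gene models, with library totals of 40408775 and 33169818 reads per the file headers. The deposited RPKM equalled count over length and header total, with a largest difference of 1.80e-06. HOMER, bcl2fastq, STAR 2.5.0c and build mm10 are named in the submitters' processing notes with no role. The treatment of multiply mapped reads and the strand setting were not given in the sources used here. The library kit keeps strand, per the labels' protocols.

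Counts were used as deposited, with the model of most reads per symbol (Gdf1 had 2 models). Genes with at least 20 reads over both libraries were scaled by TMM (edgeR 4.0.16, R 4.3.3; factors 0.824 and 1.21). Ratios have exact conditional (Clopper-Pearson) 95% intervals, which cover counting error only, since PCR copies are not told apart from molecules. Reads of 0 were set to a floor of 3 for folds. Exon reads were 72.4% and 62.8% of the totals. No p-value was computed, because each group has 1 library. The calling was tested on simulated counts with known folds. These were drawn with counting error only, as the intervals assume, so the test checks the calculation and not the spread between animals.

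Members, gene lists and calls were chosen with earlier results of these data known. Members were described by role, and in each further list the 3 genes with the largest ratio and the 1 with the largest opposite ratio were named, with a mean of at least 1 CPM. Some genes that these rules take are not reported here. Sequence sharing was counted over 50-base stretches of GENCODE M21 transcripts, and promoters come from RefSeq on GRCm38.p6. All 58 members overlapped the GENCODE gene of their name on the same strand. Scaling, the filter on reads, the choice of model and the floor were varied. Python 3.11.15, numpy 2.4.6, pandas 2.3.3, scipy 1.17.1 and matplotlib 3.10.9 were used.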

Additional observations from a re-analysis of the deposited data

How the results depend on the processing

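Counts of members higher and lower in the tumour library (21 and 9 as reported) were 27 and 7 with plain CPM, 23 and 9 with the header totals and with deposited RPKM plus 0.1, 21 and 9 with median-ratio size factors, 16 and 7 with at least 100 reads and 23 and 9 with no filter. Leaving out the 5 measured members Gdf1, Lefty1, Lefty2, Tdgf1 and Bmp8a, which share sequence with a paralog, a pseudogene or a joint transcript (chosen after seeing the data), gave 17 and 9; members that share sequence with other genes or the opposite strand stayed in. The further pathway genes gave 30 and 17 as reported and 38 and 13 with plain CPM. Smad1 and Smad7 also passed 2-fold with header totals (log2 1.11 and 1.19) and with RPKM (1.08 and 1.17). No called member reversed under these settings. Sign was lost only for members called neither, Bmp8a, Bmpr1b, Smad3, Smad6 and Tgfbr1, with plain CPM, header totals and RPKM. Ratios of genes with under 10 reads in the normal library have wide intervals. No paired analysis was possible because each group has 1 library.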

Other observations

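Chromosomal neighbours were read from the same table for several members, Nodal and Tdgf1 among them, and those of 3 are given here. Lefty2 and Lefty1 lie on chromosome 1 with 35937 bases between them. Ephx1, on the far side of Lefty1, had 1391 reads in the normal kidney and 188 in the tumour, and Tmem63a, next to Lefty1, had 388 and 586. Gdf3 lies on chromosome 6 at 16353 bases from Dppa3, which had 0 and 477 reads, and at 97494 bases from Nanog, which had 1 and 4507. On the other side of Gdf3, Apobec1 had 157 and 318 reads. These are some of the nearest genes in the table, and their values are given as a description.

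Germ cell and extraembryonic endoderm markers were read because Nodal, Lefty and Gdf3 are also known from such cells. All 6 measured germ cell markers were higher in the tumour library, with Dazl at 1 and 1045 reads and Ddx4 at 6 and 171. Of 6 extraembryonic endoderm markers 2 were higher, Gata4 with 0 and 244 reads and Gata6 with 36 and 168, and 1 was lower, Ttr with 4192 and 52. Their part in the values of the members was not tested.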
